A study of Homo sapiens with 15 samples.

Results

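U2AF2 knockdown in HEK293T cells was compared with a control hairpin by the choice of poly(A) site in each gene. HEK293T is a human embryonic kidney cell line. The 2 groups were shU2AF2, a short hairpin RNA against U2AF2, with 2 libraries, and shControl, a control hairpin, with 3 libraries; they belong to a set of 15 libraries in which 5 other knockdowns (shHDAC1, shPABPN1, shPCBP2, shSF3B4 and shZNF384) have 2 libraries each. Genes were kept when they had a value in both shU2AF2 libraries and in at least 2 shControl libraries, which left 12362 of 13056 genes. The labels do not give the number of hairpins, the time after their delivery or whether the libraries came from separate cultures, so p-values measure the spread between libraries, which may be technical. They name both a nuclear RNA isolation and a total RNA kit, followed by oligo(dT) selection. The shControl library names carry the suffix nuc and the knockdown names do not. If the suffix marks another preparation, it cannot be told apart from the hairpin in any comparison with shControl.

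U2AF2 is the large subunit of U2AF, which binds the polypyrimidine tract upstream of a 3' splice site, while its partner U2AF1 binds the AG dinucleotide at the intron end. U2AF brings the U2 snRNP to the branch point, where SF1 had bound first. Definition of the last exon depends on its 3' splice site and on its poly(A) site, and U2AF2 also contacts poly(A) polymerase and the cleavage factor I subunit CPSF7, so splicing and 3' end formation are known to be coupled through it. Many genes have a proximal and a distal poly(A) site. The choice between them sets how much 3' UTR, with its binding sites for microRNAs and proteins, an mRNA carries.

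The measurement was PDUI, the distal poly(A) site usage index: it estimates which part of a gene's RNA ends at the distal site and runs from 0.001 to 1 as a fraction. It does not measure the amount of RNA, so the strength of the knockdown could not be checked. No read counts accompany the fractions, so the depth of each library and of each value is unknown. Mean PDUI, taken over 11353 genes measured in all libraries, was 0.522, 0.560 and 0.561 in the shControl libraries and 0.571 and 0.562 in the shU2AF2 libraries. The group means differed by 0.0188 (exact two-sided permutation test, p = 0.4, where 0.1 is the smallest p that 10 splits allow). Without shControl replicate 1 the difference was 0.00585. shControl replicate 1 was the lowest of the 5. U2AF2 itself stood at 0.36, 0.45 and 0.43 in shControl and at 0.42 and 0.49 in shU2AF2, so the groups overlapped. The difference of U2AF2 was 0.0417 (SE 0.0296, limma adjusted p = 0.534), and the exon that holds its 3' end is overlapped by a gene on the opposite strand. U2AF1 (adjusted p = 1), ZRSR2, a relative of U2AF1 (adjusted p = 0.497), and SF1 (adjusted p = 0.519) did not pass the test either.

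The annotated 3' ends of 7 genes with large changes are shown first, to place where a transcript that uses the distal site may end. The table gives no site positions. These sequences are therefore the GENCODE 29 ends of the listed transcripts on GRCh38, in sense orientation, with the AATAAA poly(A) signal in capitals. The first 4 genes rose and the last 3 fell. Only TMEM25 has the same transcript version in that release as in the table, so the ends of the other 6 may differ from those scored.
TMEM25, chr11:118547253-118547278, plus strand: aaaataagtaAATAAAgtctatggta
KIN, chr10:7750972-7750997, minus strand: tttattttgaAATAAAgtctaagatt
YIPF4, chr2:32316564-32316589, plus strand: cactaaaattAATAAAttgtgtaaat
PEX16, chr11:45910182-45910207, minus strand: cctcttccctAATAAAactgactccg
MYORG, chr9:34366676-34366701, minus strand: gtaggtgctcAATAAAtggtagctat
IQGAP2, chr5:76708098-76708123, plus strand: ttttatgtaaAATAAAtgttacttaa
KIF3C, chr2:25926608-25926633, minus strand: tgcagttgacAATAAAggaatgagta

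In 3 of these genes the last exon held further AATAAA copies between the stop codon and the end. The first such copy is shown to give the span that separates an early and a late candidate signal. In YIPF4 it began 234 bases after the stop codon and ended 10728 bases before the exon end. In KIN the corresponding distances were 2550 and 2562 bases, and in MYORG 942 and 3181 bases. A match of 6 letters is a description and not a used site.
KIN, chr10:7753514-7753539, minus strand: gtaggtattgAATAAAtggcagtgag
YIPF4, chr2:32305851-32305876, plus strand: tattccagtgAATAAAatacaaaagc
MYORG, chr9:34369841-34369866, minus strand: tctcgtaggaAATAAAtagccctttc

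After U2AF2 knockdown, genes that changed mostly moved towards their distal site, and most of those had used that site little in the controls. At an adjusted p under 0.05, limma called 899 of 12362 genes (7.27%). Of these 727 were higher (5.88%) and 172 lower (1.39%) in shU2AF2. With libraries centred on their medians, 259 were higher and 132 lower, so the share of higher calls went from 80.9% to 66.2%. Centring takes 1 constant per library from every gene. The shControl medians were 0.51, 0.58 and 0.58, so it also adds spread to genes whose controls were alike. Both shU2AF2 libraries lay beyond all shControl libraries in each of the 899 genes, as they did in 29% of all tested genes, where they were above in 19.2% and below in 9.83%. Genes that rose had a median PDUI of 0.18 in shControl and 0.335 in shU2AF2, and 390 of the 727 stood under 0.2 in shControl. Genes that fell had medians of 0.68 and 0.453, and 66 of the 172 stood at 0.8 or more in shControl. With only these 2 groups in the fit, 274 were higher and 53 lower. Without shU2AF2 replicate 2 there were 501 and 72, without shU2AF2 replicate 1 481 and 129, and without shControl replicate 3 588 and 113. A difference of at least 0.3 was seen in 102 rises and 15 falls. Over all tested genes the median difference was 0.0117, with quartiles of −0.0267 and 0.0633.

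**Figure D1:**
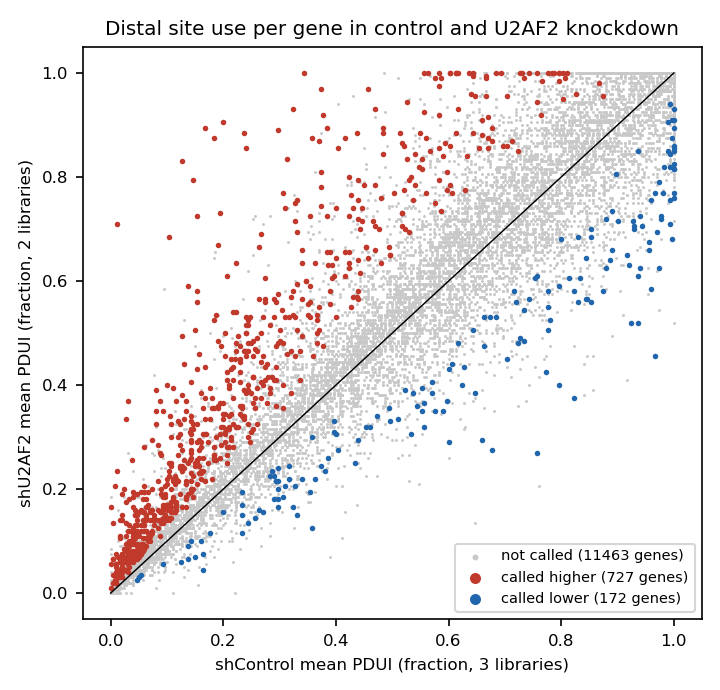
Mean PDUI (fraction) per gene in the 3 shControl libraries on the x axis and the 2 shU2AF2 libraries on the y axis, where each point is a gene and the line marks equal values. The 727 genes called higher (red) crowd the left of the plot and the 172 called lower (blue) extend to the right edge.

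The largest rise was in TMEM25, a transmembrane protein of the immunoglobulin superfamily. PDUI of TMEM25 was 0.18, 0.16 and 0.16 in shControl and 0.96 and 0.83 in shU2AF2 (difference 0.728, SE 0.0895, limma adjusted p = 0.00112). The TMEM25 last exon, at chr11:118546119-118547280, holds no internal AATAAA. KIN, a DNA- and RNA-binding protein linked to replication and repair, was at 0.17, 0.22 and 0.16 in shControl and at 0.83 and 0.92 in shU2AF2 (difference 0.692, SE 0.0639, adjusted p = 0.000222). METTL22, the methyltransferase that modifies the KIN protein, rose as well, from 0.36, 0.28 and 0.48 to 0.94 and 1 (adjusted p = 0.000472). In all 3 genes the groups were far apart, and each kept its call without any 1 of the 5 libraries.

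YIPF4 and YIPF6 are Golgi membrane proteins of the Yip family. YIPF4 was at 0.14, 0.16 and 0.14 in shControl and at 0.7 and 0.89 in shU2AF2 (difference 0.648, SE 0.0443, adjusted p = 5e-05), while YIPF6 was at 0.36, 0.4 and 0.45 against 0.88 and 0.83 (adjusted p = 0.000257). NDUFAF5, an assembly factor of respiratory complex I, was at 0.25, 0.18 and 0.15 against 0.62 and 0.84 (adjusted p = 0.000396). EPG5, which tethers autophagosomes to lysosomes, was at 0.34, 0.35 and 0.43 against 0.8 and 0.82 (adjusted p = 0.000257). CFD, the complement serine protease factor D, was at 0.19, 0.29 and 0.23 against 0.77 and 1 (adjusted p = 0.000155). These 5 genes kept their calls without each of the 5 libraries in turn. PEX16, a peroxisome biogenesis factor, was at 0.3, 0.19 and 0.23 in shControl and at 0.91 and 0.8 in shU2AF2 (difference 0.615, SE 0.0646, adjusted p = 0.000443). It ends in a last exon of 139 bases, the shortest among these genes, while that of YIPF4 spans 11106 bases.

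MAPK8, the stress-activated kinase JNK1, was at 0.42, 0.5 and 0.45 in shControl and at 0.99 and 0.95 in shU2AF2 (difference 0.513, SE 0.035, adjusted p = 5e-05). MAPK1IP1L had the smallest p of the large rises, at 0.32, 0.3 and 0.3 against 0.77 and 0.77 (difference 0.463, SE 0.0147, adjusted p = 2e-06). SEMA4D, a membrane semaphorin, was at 0.1, 0.12 and 0.24 against 0.53 and 0.63 (adjusted p = 0.000678). FBXL20, an F-box receptor of a ubiquitin ligase, was at 0.3, 0.33 and 0.3 against 0.74 and 0.74 (adjusted p = 0.00499), and CCDC9 at 0.34, 0.3 and 0.34 against 0.73 and 0.77 (adjusted p = 0.000576). Calls of these 5 held without each library. ZNRF3, a ubiquitin ligase that removes Wnt receptors, was at 0.41, 0.38 and 0.34 against 0.84 and 1 (adjusted p = 0.00781, and 0.0733 without shU2AF2 replicate 2). NOL9, a polynucleotide kinase of ribosomal RNA processing, was at 0.48, 0.42 and 0.41 against 0.93 and 0.84 (adjusted p = 0.0122, and 0.0957 without shU2AF2 replicate 1).

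The remaining large rises kept their calls in fewer of the fits that left out 1 library. TPM2, a tropomyosin, ranged from 0.14 to 0.59 in shControl and was at 0.83 and 0.92 in shU2AF2 (adjusted p = 0.0287). It lost its call without each library except shControl replicate 2, at adjusted p up to 0.177. SPAG4, a SUN-domain protein of the nuclear envelope, was at 0.25, 0.19 and 0.13 against 0.69 and 0.65 (adjusted p = 0.0279), and lost its call without any 1 of the 5 libraries, at adjusted p of 0.0502 to 0.143. LMX1B, a LIM homeodomain transcription factor, was at 0.58, 0.42 and 0.41 against 0.89 and 0.97 (adjusted p = 0.0413) and kept its call only without shControl replicate 1. In these 3 genes the groups did not overlap, which the rule for naming the rises required.

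**Figure D2:**
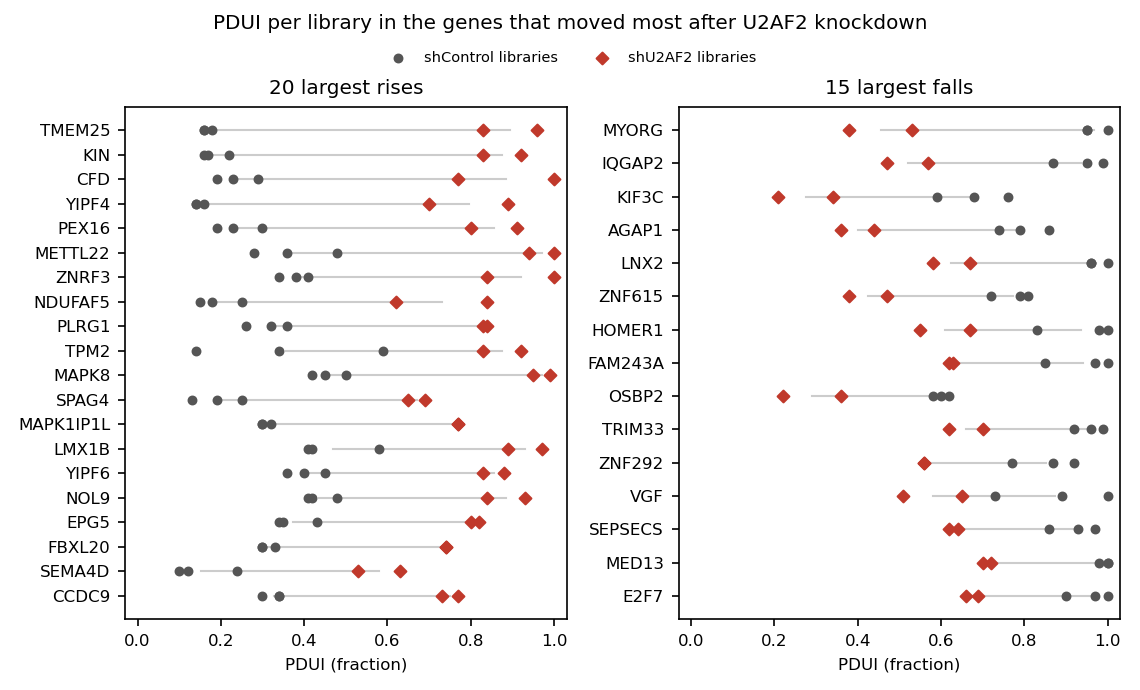
PDUI (fraction) on the x axis in each library for the 20 largest rises and the 15 largest falls among called protein-coding genes without an overlapping last exon; grey circles are the 3 shControl libraries, red diamonds the 2 shU2AF2 libraries, and each line joins the group means. Control means of the rises lie between 0.147 and 0.47, most falls start above 0.7, and TPM2 has the widest controls, from 0.14 to 0.59.

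The largest falls were smaller than the largest rises, and most began near full distal use. MYORG, a glycosidase whose coding sequence ends in its last exon, was at 0.95, 1 and 0.95 in shControl and at 0.53 and 0.38 in shU2AF2 (difference −0.512, SE 0.0962, adjusted p = 0.0117, and 0.104 without shU2AF2 replicate 2). IQGAP2, a scaffold protein of the cytoskeleton, was at 0.87, 0.99 and 0.95 against 0.57 and 0.47 (adjusted p = 0.0123, and 0.104 without shU2AF2 replicate 2). KIF3C, a kinesin-2 motor, was at 0.76, 0.59 and 0.68 against 0.21 and 0.34 (difference −0.402, SE 0.0584, adjusted p = 0.0029). AGAP1, a GTPase-activating protein of Arf, was at 0.86, 0.74 and 0.79 against 0.36 and 0.44 (difference −0.397, SE 0.0528, adjusted p = 0.00175). LNX2, a RING-type ubiquitin ligase, was at 1, 0.96 and 0.96 against 0.67 and 0.58 (adjusted p = 0.000717). TRIM33, a ubiquitin ligase of the TGF-beta pathway, was at 0.99, 0.96 and 0.92 against 0.7 and 0.62 (adjusted p = 0.0013). In shSF3B4 TRIM33 was at 0.65 and 0.57, and in the remaining knockdowns at 0.89 to 1. KIF3C, AGAP1, LNX2 and TRIM33 kept their calls without each of the 5 libraries.

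E2F7, a repressor of the E2F family, was at 1, 0.9 and 0.97 in shControl and at 0.69 and 0.66 in shU2AF2 (adjusted p = 0.00265, held without each library). MED13, of the kinase module of Mediator, was at 1, 0.98 and 1 against 0.7 and 0.72 (adjusted p = 0.00703, and 0.0541 without shU2AF2 replicate 1). ZNF615, a zinc finger gene, was at 0.81, 0.79 and 0.72 against 0.47 and 0.38 (adjusted p = 0.0154, and 0.13 without shU2AF2 replicate 2). FAM243A was at 0.85, 0.97 and 1 against 0.62 and 0.63 (adjusted p = 0.00702, held without each library), and OSBP2, an oxysterol-binding protein, at 0.62, 0.6 and 0.58 against 0.22 and 0.36 (adjusted p = 0.012, and 0.106 without shU2AF2 replicate 1). In the other 5 knockdowns E2F7 ranged from 0.72 to 0.88, under every shControl library. MED13 ranged there from 0.53 to 1, and was lowest in shPABPN1, at 0.53 and 0.59. The other 4 of the 15 largest falls were HOMER1, VGF, ZNF292 and SEPSECS, at adjusted p of 0.0424, 0.0461, 0.0195 and 0.0374. Each of those 4 lost its call without either shU2AF2 library. HOMER1 and VGF also lost it without shControl replicate 1 or 2, ZNF292 without shControl replicate 2 or 3, and SEPSECS without shControl replicate 1 or 3, and the adjusted p over the 4 genes then reached 0.268.

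To see which shifts stood apart from the whole series, shU2AF2 was also compared with the mean of the other 5 knockdowns, a contrast whose means take in no shControl library, while its spread was estimated over all 15 libraries. limma called 744 of 11463 genes (6.49%), of which 511 were higher (4.46%) and 233 lower (2.03%). With libraries centred 239 were higher and 97 lower, and without shU2AF2 replicate 1 or 2 there were 285 and 114 or 313 and 66. Among all tested genes, 677 (5.48%) had both shU2AF2 libraries beyond all 13 other libraries, above them in 3.33% and below them in 2.14%. Genes called in 1 direction in both contrasts and beyond all 13 libraries numbered 350 (2.83%), with 278 higher and 72 lower. Both contrasts use the same shU2AF2 libraries, so the second is not independent evidence. Among the 20 largest rises against shControl, TPM2, LMX1B, NOL9 and FBXL20 were not called in the second contrast (adjusted p = 0.0576, 0.0515, 0.113 and 0.0898). Among the 15 largest falls, ZNF615, HOMER1, VGF, ZNF292, SEPSECS, MED13 and E2F7 were not called in it (adjusted p of 0.0589 to 0.367). FAM243A was not tested there, and the others of both sets were called. A call against that mean need not set a gene apart from each knockdown. ZNRF3, SEMA4D, CCDC9, MYORG, OSBP2 and TRIM33 were called, but their shU2AF2 libraries were not both beyond all 13 others. In shSF3B4, ZNRF3 was at 0.62 and 1, SEMA4D at 0.5 and 0.58, and CCDC9 at 0.79 and 0.66. YIPF4 ranged from 0.14 to 0.35 over the 13 other libraries and was 0.537 above the other knockdowns (SE 0.0376, adjusted p = 6e-05). MAPK8 ranged from 0.39 to 0.63 (difference from the other knockdowns 0.431, SE 0.0297, adjusted p = 5.6e-05). KIN ranged from 0.11 to 0.56 (difference 0.581, adjusted p = 0.000274) and TMEM25 from 0.11 to 0.44 (difference 0.628, adjusted p = 0.0012). TMEM237, which acts at the transition zone of cilia, was at 1 in both shU2AF2 libraries and between 0.29 and 0.71 in the other 13, with a pseudogene, ENO1P4, overlapping its last exon.

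PLRG1, a core subunit of the Prp19 complex, was at 0.32, 0.36 and 0.26 in shControl and at 0.84 and 0.83 in shU2AF2, and ranged from 0.26 to 0.52 over the 13 other libraries (difference from the other knockdowns 0.431, SE 0.038, adjusted p = 0.000183). Among the falls, KIF3C ranged from 0.42 to 0.76 in the 13 other libraries (difference −0.34, adjusted p = 0.00356) and AGAP1 from 0.51 to 1 (difference −0.345, adjusted p = 0.00181). Some genes entered here that were not among the 15 largest falls against shControl. ZMYM4, a zinc finger gene, was at 0.5 and 0.51 in shU2AF2 and between 0.64 and 0.85 elsewhere (difference −0.24, adjusted p = 0.00644). YTHDF3, a reader of m6A-modified RNA, was at 0.73 and 0.72 against 0.86 to 1 elsewhere (difference −0.217, adjusted p = 0.00854). CNOT6L, a deadenylase of the CCR4-NOT complex, was at 0.51 and 0.54 against 0.56 to 1 (difference −0.266, adjusted p = 0.0171). NDC1, a transmembrane nucleoporin, was at 0.71 and 0.58 against 0.8 to 0.96 (difference −0.226, adjusted p = 0.0153). Against shControl, CNOT6L and NDC1 lost their calls without shControl replicate 1 (adjusted p = 0.0992 and 0.124), shControl replicate 2 (0.0974 and 0.107) or shU2AF2 replicate 2 (0.135 and 0.33). CNOT6L also lost it without shU2AF2 replicate 1 (0.175), NDC1 without shControl replicate 3 (0.0652), and YTHDF3 without shU2AF2 replicate 2 (0.0565).

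**Figure D3:**
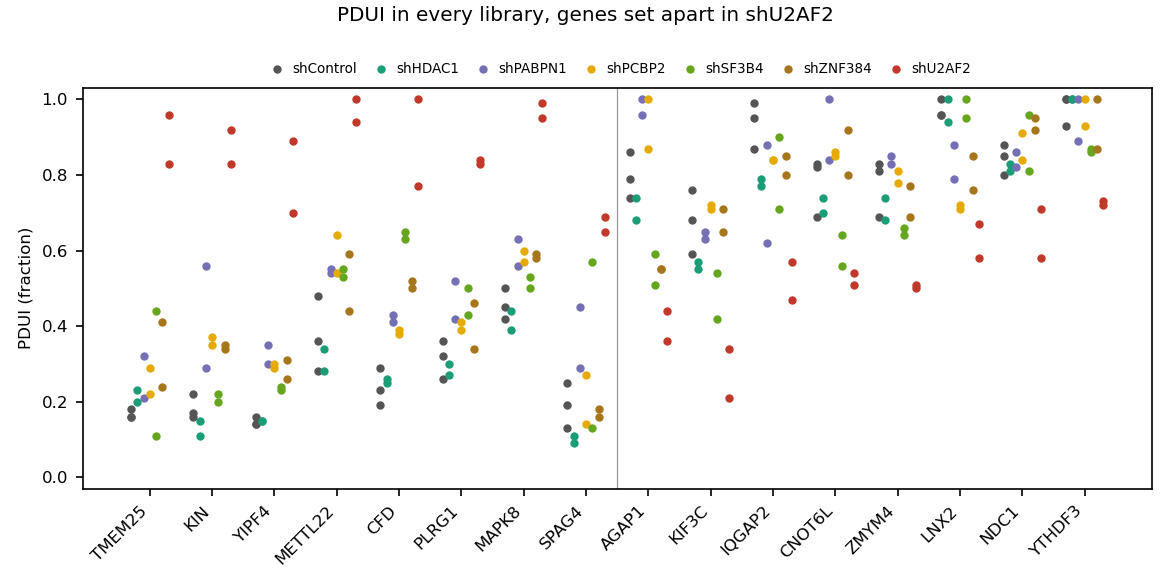
PDUI (fraction) on the y axis in all 15 libraries for 8 rises (left of the line) and 8 falls (right), chosen as called in both contrasts and beyond the 13 other libraries; each point is a library, coloured by group, with shU2AF2 in red. The red points are the highest of every gene on the left and the lowest of every gene on the right.

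Called genes of the splicing lists moved towards the distal site, with 1 exception, while 80.9% of all called genes were higher. Of 33 tested genes of U2AF and the U2 snRNP, 3 rose and none fell. SUGP1, a G-patch protein that works with SF3B1, went from 0.02, 0.01 and 0.03 to 0.17 and 0.13 (adjusted p = 0.00192). SF3B1, the core of SF3b, moved from 0.06, 0.06 and 0.05 to 0.1 and 0.09 (adjusted p = 0.00175), and SF3A1, of SF3a, from 0.25, 0.25 and 0.24 to 0.29 and 0.29 (adjusted p = 0.0126, and 0.0729 or 0.0751 without shU2AF2 replicate 1 or 2). With libraries centred, SUGP1 was the 1 call left of the 3. Centring lowers the difference of a gene with values in all 5 libraries by 0.0233, and it also changes the spread. TMEM59, at 0.03 in each shControl library and 0.12 in both shU2AF2 libraries, kept a centred difference of 0.0667. Its limma adjusted p went from 9e-06 to 0.118. In shSF3B4, SF3B1 was at 0.11 in both libraries and SF3A1 at 0.3 and 0.32, above shU2AF2, while SUGP1 was at 0.04 and 0.08. The 9.09% called is close to the 7.27% over all genes.

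The tri-snRNP and the catalytic spliceosome had 9 of 48 tested genes called, all higher (18.8%, beside 7.27% over all genes). Against the other 5 knockdowns, 2 of 48 were called higher and none lower. The median PDUI of this list in shControl was 0.32, against 0.573 over all tested genes. With libraries centred, 3 were called, and without shControl replicate 1 there were 12. SART1, a scaffold of the U4/U6.U5 tri-snRNP, was at 0.12, 0.14 and 0.12 in shControl and at 0.5 and 0.49 in shU2AF2 (difference 0.368, SE 0.0249, adjusted p = 4.9e-05). SART1 ranged from 0.09 to 0.28 over the 13 other libraries, and its last exon lies at chr11:65979012-65979828. PPIE, a cyclophilin of the activated spliceosome, was at 0.17, 0.13 and 0.05 against 0.32 and 0.42 (adjusted p = 0.0137, and 0.123 without shU2AF2 replicate 2), with a gene on the opposite strand, BMP8B, overlapping its last exon. PRPF38A, ISY1, SMU1, LSM8, TXNL4A and LSM3 rose by 0.0133 to 0.105, with LSM3 the smallest and PRPF38A the largest. Each of these 6 lost its call without at least 1 library: PRPF38A without shU2AF2 replicate 1 (adjusted p = 0.0646), ISY1 without shU2AF2 replicate 2 (0.086), and SMU1, TXNL4A and LSM3 without either shU2AF2 library (up to 0.166). LSM8 lost it without shControl replicate 2 or 3 or shU2AF2 replicate 1 (up to 0.209). LSM3 turned to a difference of −0.01 with libraries centred. ISY1 shares its last exon with the read-through gene ISY1-RAB43, so reads of the pair cannot be told apart. HSBP1L1 lies on the opposite strand of the TXNL4A last exon.

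Of 16 tested U1 snRNP genes, 3 rose (18.8%, beside 7.27% over all genes). PRPF40B was at 0.001, 0.09 and 0.001 against 0.38 and 0.36 (adjusted p = 0.00352), where 0.001 is the lowest value in the table. LUC7L3 was at 0.04, 0.05 and 0.05 against 0.13 and 0.11 (adjusted p = 0.000431), and at 0.11 and 0.13 in shSF3B4. Both are U1-associated factors, and the core U1 proteins SNRPA, SNRPC and SNRNP70 did not pass (adjusted p = 0.382, 0.402 and 0.475). Of 20 polypyrimidine tract binders, CELF2 alone rose (5% called), from 0.25, 0.31 and 0.26 to 0.48 and 0.39 (adjusted p = 0.00422). Of 23 hnRNP genes, 3 rose and none fell (13%). HNRNPA3 stood at 0.27 in each shControl library and at 0.47 and 0.44 in shU2AF2 (difference 0.185, adjusted p = 4.3e-05, and 0.00701 with libraries centred). In shPABPN1 HNRNPA3 was at 0.48 and 0.49, and in the remaining knockdowns at 0.21 to 0.41. HNRNPDL and HNRNPD rose by 0.128 and 0.0217 (adjusted p = 0.0178 and 0.0207). HNRNPDL lost its call without shControl replicate 3 (0.0583) or either shU2AF2 library (0.129 and 0.0589), and HNRNPD without shControl replicate 2 (0.0604), shControl replicate 3 (0.0664) or shU2AF2 replicate 2 (0.167).

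The SR protein list, with 26 tested genes, had 2 rises and the 1 fall in the splicing lists, SRSF10, which went from 0.51, 0.54 and 0.52 to 0.41 and 0.37 (adjusted p = 0.00654, and 0.0689 without shU2AF2 replicate 2). SRSF10 was at 0.25 and 0.26 in shSF3B4 and at 0.43 to 0.6 in the remaining knockdowns. The share called in this list was 11.5%, beside 7.27% over all genes. SRSF1 rose by 0.205 (adjusted p = 9.2e-05), with AC015813.2 overlapping its last exon on the same strand. PNN, or pinin, counted here and in the next list, rose from 0.15, 0.17 and 0.16 to 0.23 and 0.21 (adjusted p = 0.00646, and 0.0618 without shU2AF2 replicate 1). The exon junction complex and nonsense-mediated decay list had 2 rises among 20 genes (10%), PNN and SAP18, and neither was called with libraries centred (adjusted p = 0.471 and 0.672). SAP18, a partner of pinin in the PSAP complex, went from 0.07, 0.07 and 0.08 to 0.12 and 0.12 (adjusted p = 0.00282). Of 28 cleavage and polyadenylation factors, 2 rose, CPSF6 of cleavage factor I, from 0.59, 0.64 and 0.56 to 0.77 and 0.78 (adjusted p = 0.0412), and CSTF1 of the cleavage stimulation factor, from 0.12, 0.14 and 0.14 to 0.17 and 0.2 (adjusted p = 0.0407). Both lost their calls without shControl replicate 1 (0.0869 and 0.105), shControl replicate 3 (0.112 and 0.072) or shU2AF2 replicate 2 (0.197 and 0.286). CPSF6 also lost it without shU2AF2 replicate 1 (0.151) and CSTF1 without shControl replicate 2 (0.0664). MIR1279 lies on the opposite strand of the CPSF6 last exon. CPSF6 was at 0.84 to 1 in shPABPN1, shPCBP2 and shZNF384, and at 0.41 to 0.55 in shHDAC1 and shSF3B4. Its difference from the mean of the other 5 knockdowns was 0.022 (limma adjusted p = 0.872). With libraries centred no gene of this list was called, and without shControl replicate 1 none was higher and 1 lower. The share called, 7.14%, is near that of all genes.

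Proteasome subunits, translation initiation factors and both groups of ribosomal proteins, picked out after their values were seen, had 13.2% to 19.4% of their genes called, all higher, beside 7.27% over all genes. Other families of protein synthesis and breakdown had smaller shares. In RNF and TRIM ubiquitin ligases 4 rose and 3 fell among 97 (7.22%), in F-box and kelch-like proteins 4 rose among 73 (5.48%), in USP and OTU deubiquitinases 2 rose and 1 fell among 58 (5.17%), and in tRNA synthetases 2 rose among 33 (6.06%). The counts are a description and not a test. The median PDUI in shControl was 0.325 in proteasome subunits, 0.383 in translation initiation factors, 0.375 in mitochondrial ribosomal proteins and 0.168 in cytosolic ribosomal proteins, against 0.573 over all tested genes. Of 36 proteasome subunit genes, 7 rose and none fell (19.4%), with 2 higher when libraries were centred. PSMD8, of the regulatory particle, went from 0.35, 0.41 and 0.42 to 0.61 and 0.6 (adjusted p = 0.00149), PSMC4, a regulatory ATPase, from 0.13, 0.1 and 0.12 to 0.23 and 0.21 (adjusted p = 0.000678), and PSMA5, of the catalytic core, from 0.02, 0.01 and 0.02 to 0.11 and 0.1 (adjusted p = 0.000121). Of 48 translation initiation factor genes, 9 rose (18.8%), and 5 did when centred. EIF3F, of the eIF3 complex, went from 0.02 in each shControl library to 0.15 and 0.13 (adjusted p = 2.2e-05). EIF3C and EIF3CL are near-identical copies, so their rises of 0.155 and 0.143 may be 1 signal.

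Of 52 cytosolic ribosomal protein genes, 8 rose and none fell (15.4%), 8 rose and 1 fell without shControl replicate 1, and none was called with libraries centred. These genes have many processed pseudogenes, so how reads were shared out is uncertain. Their median in shControl was 0.168, against a median difference of 0.00917 that lies under the centring constant. RPL7L1 went from 0.82, 0.79 and 0.8 to 0.96 and 0.94 (adjusted p = 0.000629), and RPS14 from 0.02 in each shControl library to 0.04 in both shU2AF2 libraries (adjusted p = 0.000461), which turned to −0.0033 when centred. Of 68 mitochondrial ribosomal protein genes, 9 rose (13.2%) and 2 did when centred. MRPL42 went from 0.09, 0.1 and 0.09 to 0.34 and 0.36 (adjusted p = 0.000205, and 0.0033 centred). Of 63 NADH dehydrogenase, cytochrome and ATP synthase subunits and assembly factors, 9 rose (14.3%) and 2 did when centred. ATP5F1D, of the ATP synthase, went from 0.41, 0.46 and 0.47 to 0.75 and 0.73 (adjusted p = 0.000136, and 0.0014 centred).

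**Figure D4:**
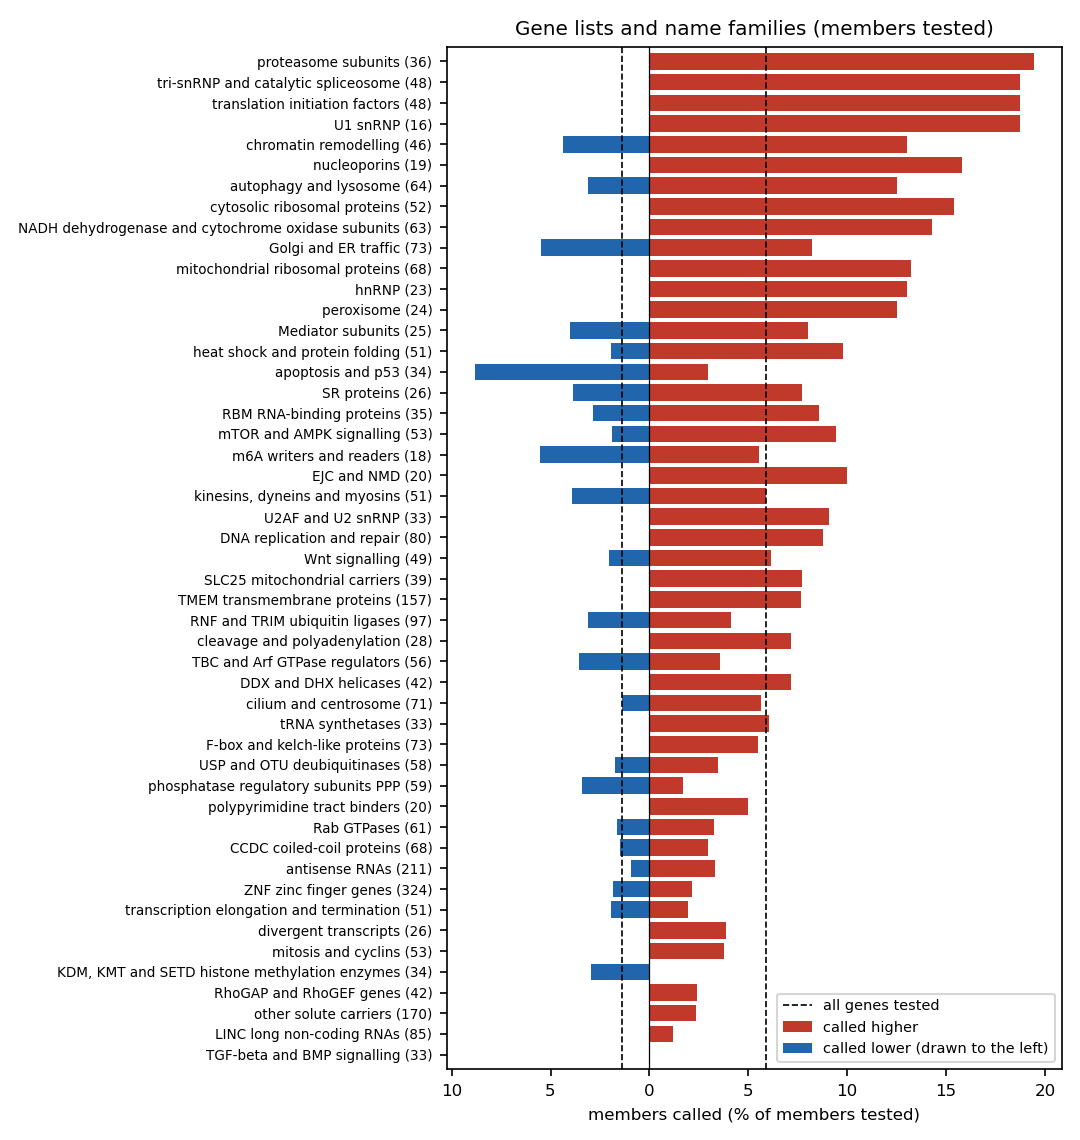
Percent of tested members called higher (red, to the right) and lower (blue, to the left) in shU2AF2 against shControl on the x axis, for each gene list or name family, with the number of members tested in brackets; dashed lines mark the shares over all tested genes, 5.88% higher and 1.39% lower. Proteasome subunits stand at the top with 19.4% and TGF-beta and BMP signalling at the bottom with no call.

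The share called ranged widely over the other families. Of 19 nucleoporins, 3 rose (15.8%), with 2 higher and 1 lower when libraries were centred. NUP155, of the inner ring of the nuclear pore, went from 0.6, 0.61 and 0.46 to 0.85 and 1 (adjusted p = 0.0103, and 0.096 without shU2AF2 replicate 2). Of 25 Mediator subunits, 2 rose and 1 fell (12%), the fall being MED13, and MED29 went from 0.47, 0.51 and 0.47 to 0.94 and 0.83 (adjusted p = 0.00381). Of 35 RBM genes, 3 rose and 1 fell (11.4%), and of 51 kinesins, dyneins and myosins, 3 rose and 2 fell (9.8%). Of 324 ZNF zinc finger genes, 7 rose and 6 fell (4.01%), with 5 and 10 without shControl replicate 1 and 4 and 7 when centred. ZNF431 rose from 0.32, 0.33 and 0.34 to 0.81 and 0.7 (adjusted p = 6e-05), with a pseudogene in its last exon. ZNF273 rose from 0.54, 0.52 and 0.59 to 0.89 and 0.88 (adjusted p = 0.00251). Of 170 solute carriers outside the SLC25 family, 4 rose (2.35%), with 3 higher and 3 lower without shControl replicate 1 and none when centred, and SLC35C2, a nucleotide sugar transporter family member, went from 0.03, 0.04 and 0.03 to 0.11 and 0.13 (adjusted p = 0.000176). In shSF3B4 SLC35C2 was also at 0.11 and 0.13, and in the remaining knockdowns at 0.03 to 0.05. Of 85 LINC non-coding RNAs, LINC01424 alone was called (1.18%), from 0.22, 0.2 and 0.25 to 0.46 and 0.47 (adjusted p = 0.000844). Of 33 TGF-beta and BMP signalling genes, limma called none at an adjusted p under 0.05, and 2 had an unadjusted p under 0.05; with libraries centred or without shControl replicate 1, 1 was called lower. KDM5A, a histone demethylase, was the 1 call among 34 KDM, KMT and SETD genes, a fall from 0.33, 0.3 and 0.32 to 0.22 and 0.22 (adjusted p = 0.00144).

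Apoptosis and p53 genes moved in both directions, with 1 rise and 3 falls among 34 (11.8%), and 2 of each without shControl replicate 1. BAX, which permeabilises the outer mitochondrial membrane, rose from 0.44, 0.45 and 0.46 to 0.8 and 0.77 (difference 0.335, SE 0.0256, adjusted p = 8.6e-05). PMAIP1, or NOXA, an activator of the same pathway, fell from 0.48, 0.49 and 0.52 to 0.36 and 0.3 (adjusted p = 0.012, and 0.114 without shU2AF2 replicate 2). CFLAR, or c-FLIP, an inhibitor of caspase-8, fell from 0.37, 0.34 and 0.35 to 0.19 and 0.2 (adjusted p = 0.00173), and AC007283.1 overlaps its last exon. The third fall was BIRC6, an inhibitor of apoptosis chosen here after its values were seen, from 0.4, 0.37 and 0.44 to 0.28 and 0.27 (adjusted p = 0.0322). BIRC6 lost its call without shControl replicate 1 (0.0699), shControl replicate 3 (0.089) or either shU2AF2 library (0.126 and 0.17).

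Autophagy and lysosome genes had 8 rises and 2 falls among 64 (15.6%), with 6 and 1 without shControl replicate 1 and 2 and 1 when centred. HEXA, the alpha subunit of lysosomal hexosaminidase, rose from 0.09, 0.08 and 0.07 to 0.43 and 0.35 (adjusted p = 5.4e-05). ATP6V0B, of the proton pump that acidifies lysosomes, rose from 0.11, 0.14 and 0.12 to 0.33 and 0.32 (adjusted p = 1e-05). UVRAG, of a Beclin 1 complex, fell from 0.37, 0.37 and 0.33 to 0.13 and 0.12 (adjusted p = 0.000117). In the mTOR and AMPK list, 5 rose and 1 fell among 53 (11.3%, beside 7.27% over all genes). TSC1, which restrains mTORC1, went from 0.58, 0.59 and 0.64 to 1 in both shU2AF2 libraries (adjusted p = 0.00153). It was at 0.97 and 1 in shSF3B4 and at 0.5 to 0.74 in the remaining knockdowns. RPS6KB2, the S6 kinase 2 downstream of mTORC1, went from 0.43, 0.52 and 0.5 to 0.95 and 0.84 (adjusted p = 0.000252), with RPS6KB2-AS1 on the opposite strand of its last exon. AKT2, upstream of TSC1, went from 0.19, 0.2 and 0.2 to 0.28 and 0.29 (adjusted p = 0.000285). RPS6KB1, the S6 kinase 1 and paralog of RPS6KB2, was the fall in this list and was picked out after its values were seen. RPS6KB1 went from 0.6, 0.51 and 0.55 down to 0.41 and 0.38 (adjusted p = 0.0337), and lost its call without shControl replicate 1 (0.0773), shControl replicate 3 (0.0787) or either shU2AF2 library (0.107 and 0.205). TSC1 and RPS6KB2 were also called with libraries centred (adjusted p = 0.00448 and 0.000529), and AKT2 was not (0.174).

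Of 80 DNA replication and repair genes, 7 rose and none fell (8.75%, close to the 7.27% over all genes). Without shControl replicate 1, 5 rose and 1 fell. Besides KIN, CDT1, a licensing factor of replication origins, stood at 0.24 in each shControl library and at 0.56 and 0.5 in shU2AF2 (difference 0.29, SE 0.0168, adjusted p = 2.4e-05). LIG3, a DNA ligase, went from 0.2, 0.21 and 0.22 to 0.34 and 0.34 (adjusted p = 0.00089), with RFFL on the opposite strand of its last exon. The other 4 rises in this list, MCM2, ORC4, MCM5 and MCM6, were named after their values were seen. MCM2, of the replicative helicase, went from 0.03, 0.03 and 0.04 to 0.08 and 0.08 (adjusted p = 0.00127), and ORC4, of the origin recognition complex, from 0.11, 0.11 and 0.1 to 0.22 and 0.18 (adjusted p = 0.00175), with ACVR2A on the opposite strand. MCM5 and MCM6 rose by 0.0217 and 0.045 (adjusted p = 0.0474 and 0.0386) and lost their calls without shControl replicate 1 (0.113 and 0.101). MCM5 also lost it without shControl replicate 2 (0.116) or either shU2AF2 library (0.27 and 0.0733), and MCM6 without shControl replicate 3 (0.11) or shU2AF2 replicate 2 (0.277). None of these 4 was called with libraries centred. Of 53 mitosis and cyclin genes, 2 rose (3.77%, under the 7.27% over all genes). Among them, SMC1A of cohesin went from 0.1, 0.11 and 0.09 to 0.21 and 0.21 (adjusted p = 1.1e-05, and 0.0555 when centred). Of 46 chromatin remodelling genes, 6 rose and 2 fell (17.4%, beside 7.27% over all genes), and 2 rose and 3 fell with libraries centred. SMARCA5, the ATPase of ISWI complexes, went from 0.07, 0.07 and 0.06 to 0.2 and 0.19 (adjusted p = 8e-06), with AC139713.1 on the opposite strand of its last exon. SRCAP, an ATPase that deposits the histone variant H2A.Z, fell from 0.22, 0.24 and 0.24 to 0.14 and 0.16 (adjusted p = 0.00359), with AC106886.2, AC106886.5 and TMEM265 overlapping its last exon on the same strand.

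Golgi and ER traffic genes had 6 rises and 4 falls among 73 (13.7%). Next to the YIPF genes, SEC22B, a SNARE of ER to Golgi traffic, rose from 0.27, 0.3 and 0.25 to 0.59 and 0.53 (adjusted p = 0.000117). Of 24 peroxisome genes, 3 rose (12.5%). PEX19, a chaperone and import receptor that acts with PEX16, went from 0.52, 0.52 and 0.54 to 0.89 and 0.78 (adjusted p = 0.00171), with AL139011.2 overlapping its last exon. Of 18 m6A genes, 1 rose and 1 fell (11.1%, beside 7.27% over all genes). METTL3, the catalytic subunit of the writer, rose from 0.06, 0.09 and 0.07 to 0.17 and 0.23 (adjusted p = 0.0011). The reader YTHDF3 fell, as described above. In the heat shock and protein folding list, 5 rose and 1 fell among 51 (11.8%), but 3 rose and 2 fell without shControl replicate 1, and none rose and 2 fell with libraries centred. DNAJC2 went from 0.03, 0.04 and 0.01 to 0.14 and 0.13 (adjusted p = 0.000269, and 0.0876 centred), and DNAJA2 from 0.28, 0.25 and 0.28 down to 0.16 and 0.15 (adjusted p = 0.00118). Both are J-domain co-chaperones.

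The genes called differed from the rest in the level they started from. Of 1100 genes with a shControl mean under 0.1, 21.4% were called, nearly all higher, while of 1992 genes at 0.9 or more, 2.31% were called, all lower. The median SD within the 2 groups was 0.00943 in the first set and 0.0323 in the second, and reached 0.0934 between 0.8 and 0.9, where 2.23% were called. The part of the spread in these shares was not tested. Library values of the named genes came in steps of 0.01, apart from the lowest value. The median SD under 0.1 was thus close to 1 step. Some calls rested on few steps: LSM3 was at 0.01, 0.02 and 0.02 in shControl and at 0.03 in both shU2AF2 libraries. The part of this rounding in the shares was not tested either. With genes of a mean PDUI under 0.05 left out, limma called 626 higher and 156 lower. Values near 0 or 1 can move in 1 direction only.

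Genes with long last exons were called more often. The median last exon was 2564 bases in genes that rose and 2968 bases in genes that fell, against 1381 bases over all tested genes. By quintiles of last exon length, from 16 to 511 bases up to 3124 to 32994 bases, the share called was 3.61%, 4.15%, 5.72%, 7.69% and 15.6%. Among genes with shControl means of 0.2 to 0.6, the first and last quintiles had 2.69% and 21.5%. This band holds the control level only in part. The share called was 11.3% at 0.2 to 0.4 and 4.47% at 0.4 to 0.6. The median shControl mean in the band was 0.41 in the first quintile and 0.377 in the last. The median SD within groups was 0.0512 in the shortest quintile and 0.0332 in the longest, and its part in the shares was not tested. Without shControl replicate 1 the shares of these quintiles were 3.06% and 13.7%, and without overlapping last exons 3.09% and 15.3%.

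Internal copies of AATAAA, counted on the sense strand of the last exon outside its final 50 bases and with overlaps allowed, followed the same order. Of all tested genes with an annotated last exon, 49.7% had at least 1 copy, against 68.8% of those that rose and 78.9% of those that fell. The share called was 4.27% with none and 17.4% with 6 or more, where the median last exon was 746 and 5394 bases long. Length and the number of copies therefore cannot be read apart here. AATAAA stood within the final 50 bases in 60.9% of all tested genes, 56.6% of rises and 70.2% of falls.

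The tetramer TGTA, read UGUA in RNA and bound by cleavage factor I, was found on the sense strand in 89.3% of all last exons, with overlaps allowed. Its median density was 4.26 per kilobase over all tested genes, 4.15 in genes that rose and 6.03 in genes that fell. In the quintile of genes with the highest density, 2.53% were called lower and 3.78% higher, and in the lowest quintile 0.664% and 5.15%. Higher calls peaked in between, at 5.15%, 6.48%, 7.18%, 7.06% and 3.78% from the lowest to the highest quintile. The median last exon was 1475 bases in the quintile of highest density and 685 bases in that of lowest density. A match is a description and not a binding site.

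**Figure D5:**
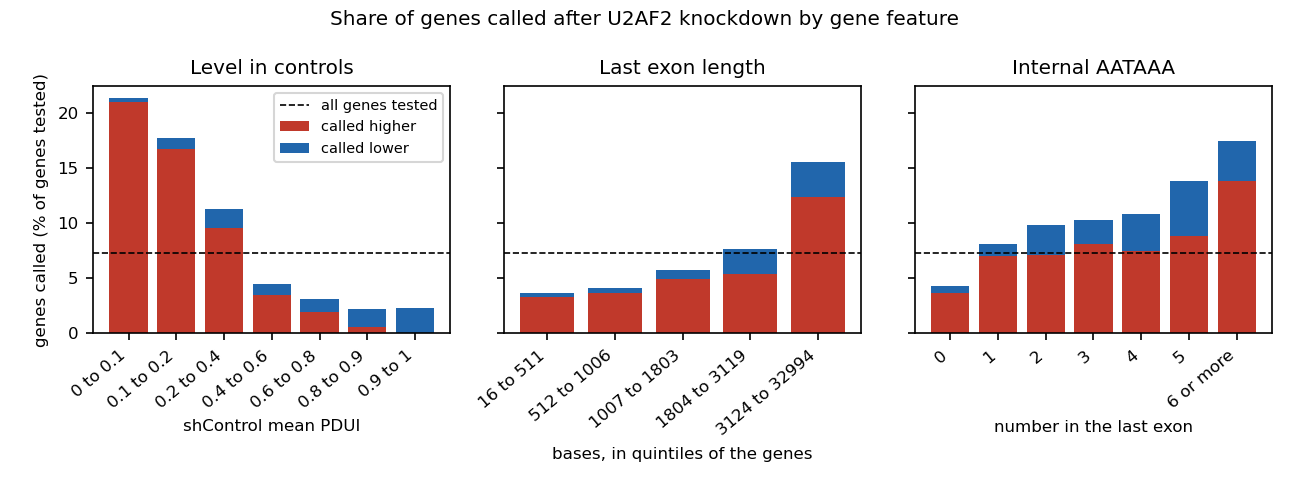
Percent of tested genes called higher (red) and lower (blue, stacked) on the y axis, by shControl mean PDUI, by quintiles of last exon length in bases, and by the number of internal AATAAA copies in the last exon; the dashed line marks 7.27% over all genes. The share falls from 21.4% to 2.31% with the control level, and rises from 3.61% to 15.6% with length and from 4.27% to 17.4% with AATAAA copies.

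Gene structure and type gave smaller contrasts. Of 899 single-exon genes, 5.78% were called, but 2.66% of those without an overlapping gene, and of 3200 genes with 9 to 16 exons, 9.09%. By quintiles of last intron length, the share called lay between 5.92% and 8.76%, lowest in the longest introns. Protein-coding genes were called in 7.61% of 10634 and lincRNA genes in 1.83% of 383. Antisense RNA genes by annotation were called in 7.79% of 642, and in 1.98% of those whose last exon overlaps no other gene. Among them, ZRANB2-AS1 fell from 0.32, 0.35 and 0.32 to 0.15 and 0.15 (adjusted p = 0.000214), and it overlaps ZRANB2 on the other strand. The kit's strand is not stated, so reads of an antisense gene and its partner cannot be told apart. The 20 markers of other cell types that had been listed included 4 in the table, COL1A1, RBFOX3, SYT1 and ACTA1, and PDUI gives no expression level by which to judge them.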

How the data were processed

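The deposited table gives PDUI as a fraction for 13056 transcripts, 1 per gene, on hg38 per the submitters' processing notes. The sources used here do not give the program, aligner or annotation that the authors used. Libraries were grouped by their titles, and the shSF3B4 columns, whose numbering differs between titles and library names, by group alone. Values entered limma 3.58.1 (R 4.3.3) as deposited, with all 15 libraries, 1 mean per group and eBayes with a trend. Residual degrees of freedom were 8, and the prior added 1.06. Tests were two-sided, p-values were adjusted by Benjamini-Hochberg over all tested genes, and a call is an adjusted p under 0.05. The script was tested on simulated data. Last exons and sequences come from GENCODE 29, which holds 97.3% of the transcripts by identifier, 54.9% with the same version. An overlap is another gene in the last exon.

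Named genes are the 20 largest rises and 15 largest falls among called protein-coding genes without such an overlap whose shU2AF2 libraries lie beyond all controls, all called members of the splicing and 3' end lists, up to 3 members of smallest p in each other list or family, the U2AF genes with SF1, and 8 genes per direction set apart from all other libraries. U2AF1L4 was not tested, and 1 called gene of the U1 snRNP list is not reported here. The members and lists were chosen with earlier results of these data known. Name families were defined from symbols after the table was seen, and counts of lists, families and features without shControl replicate 1, with libraries centred or without overlapping genes were added after seeing the data. Figures were drawn with matplotlib 3.10.9.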

Additional observations from a re-analysis of the deposited data

How the results depend on the processing

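Counts below are genes called against shControl, in all, higher and lower, beside 899, 727 and 172. With only shU2AF2 and shControl fitted they were 327, 274 and 53, and 287 of the 899 were kept. With libraries centred on their medians they were 391, 259 and 132, with 363 kept and 24 of the 899 in the opposite direction. Without overlapping last exons, where 8959 genes remain, they were 588, 467 and 121. With the replicate block, which needed shSF3B4 left out, they were 531, 464 and 67, and the same libraries without the block gave 840, 689 and 151. The groups share 2 numbers, and same-numbered libraries deviated with correlations of 0.0245 and 0.0291 over 11353 genes, so the numbers were not taken as pairs. Leaving out 1 library gave 573 to 788 calls, 481 to 631 higher and 72 to 174 lower; the fewest, 573, came without shU2AF2 replicate 2, and shU2AF2 replicate 1 left out gave 481 higher and shControl replicate 3 left out gave 113 lower. A group left with 1 library was assumed to vary like the others. The remaining settings (no trend, robust eBayes, log2 odds, entries at 0.001 taken as missing, complete genes, low means or genes without spread left out) gave 782 to 933 calls.

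Against the other 5 knockdowns, 511 higher and 233 lower became 239 and 97 with libraries centred and 313 and 172 without overlapping last exons. Leaving out 1 library gave 285 to 518 higher and 66 to 224 lower, with the lowest numbers without a shU2AF2 library. The difference in library means stayed between 0.00585 and 0.0254 without 1 library, the lowest without shControl replicate 1.

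Of the 157 named genes called, 95 kept the call without each of the 5 libraries of the 2 groups. With only the 2 groups fitted 84 of the named genes lost it, with the block 56, and with libraries centred 65, beside 5 that changed sign. Centring turned LSM3 to −0.01, HNRNPD and LARS2 to −0.0017, and RPS14 and RBM23 to −0.0033. U2AF1, uncalled, ranged from −0.055 to 0.035 when 1 library was left out, and was above 0 without shControl replicate 2 (0.035) or shU2AF2 replicate 1 (0.0233). Apart from the effect of fewer samples or genes and of the centring constants on difference and spread, the cause of these changes was not tested. The depth behind each fraction is unknown, so no limit of detection can be given.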
